A study of Mus musculus with 6 samples.

Results

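The giant and accessory proteins of the sarcomere were examined in the gastrocnemius, the large calf muscle, through 8 genes: Ttn (titin), Neb (nebulin), Myom1, Myom2 and Myom3 (the myomesins of the M-band), and Mybpc1, Mybpc2 and Mybph (the myosin-binding proteins). Their members were all probe sets that the platform's gene table maps to exactly 1 of these symbols, 18 of the 45101 probe sets on each array, and 8 of the 18193 genes so named. The samples were total RNA of whole gastrocnemius from male C57B1/6 mice with a normal karyotype, 3 arrays labelled young (replicates 1, 2 and 3) and 3 labelled aged (replicates 51, 52 and 53). No genotype other than the strain and no treatment is named in the labels, and the sources used here give no ages. Nor is it said whether the arrays of a group came from separate animals. The p-values therefore measure the spread between these samples alone, and that spread may be technical.

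Titin is a single chain that spans from the Z-disc to the M-band. It acts as a molecular spring and as a template for the thick filament. Nebulin runs along the thin filament and stabilises it, and the myomesins crosslink myosin filaments at the M-band. Myosin-binding protein C sits in regular stripes on the thick filament and tunes how myosin heads meet actin. Its slow form is encoded by Mybpc1 and its fast form by Mybpc2, and Mybph encodes the shorter, related protein H.

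Of these 8 genes, Mybpc1 was the 1 with a probe set past the test. Mybpc1, measured by 1442769_at, fell by 1.91 ± 0.38 on the log2 scale (limma's standard error, n = 3 per group; 3.77-fold higher in young muscle, adjusted p = 0.0324). The brightest Mybpc1 probe set (-0.64 ± 0.23), Mybpc2 (-0.57 ± 0.23) and Mybph (-0.52 ± 0.33) did not pass. No probe set of Ttn, Neb, Myom1, Myom2 or Myom3 passed. A change is always the aged mean minus the young mean of log2 signals, and each adjusted p comes from limma with Benjamini-Hochberg adjustment over 22519 probe sets.

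In all, 17 of the 18 probe sets were bright enough to be tested, and every gene had at least 1. The 1 left out as dim was 1446450_at of Ttn. Of the 17, 1 was called lower and 0 higher, against 0.742% and 0.311% of all tested probe sets. At an unadjusted p under 0.05 there were 4 of 17, where 10% of all tested probe sets were. The aged arrays lay wholly below the young ones on 5 of 17 probe sets and wholly above on 1, against 8.74% and 7.41% of all. The aged mean was lower on 15 of 17, against 49.5% of all tested probe sets. The median change was -0.39, and that of all tested probe sets was 0.0079. Centring the arrays on their medians moved this last value to -0.11, so changes under that scaling are to be read against it. Probe sets of 1 gene share a transcript, so these counts are not over 17 independent measurements.

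**Figure D1:**
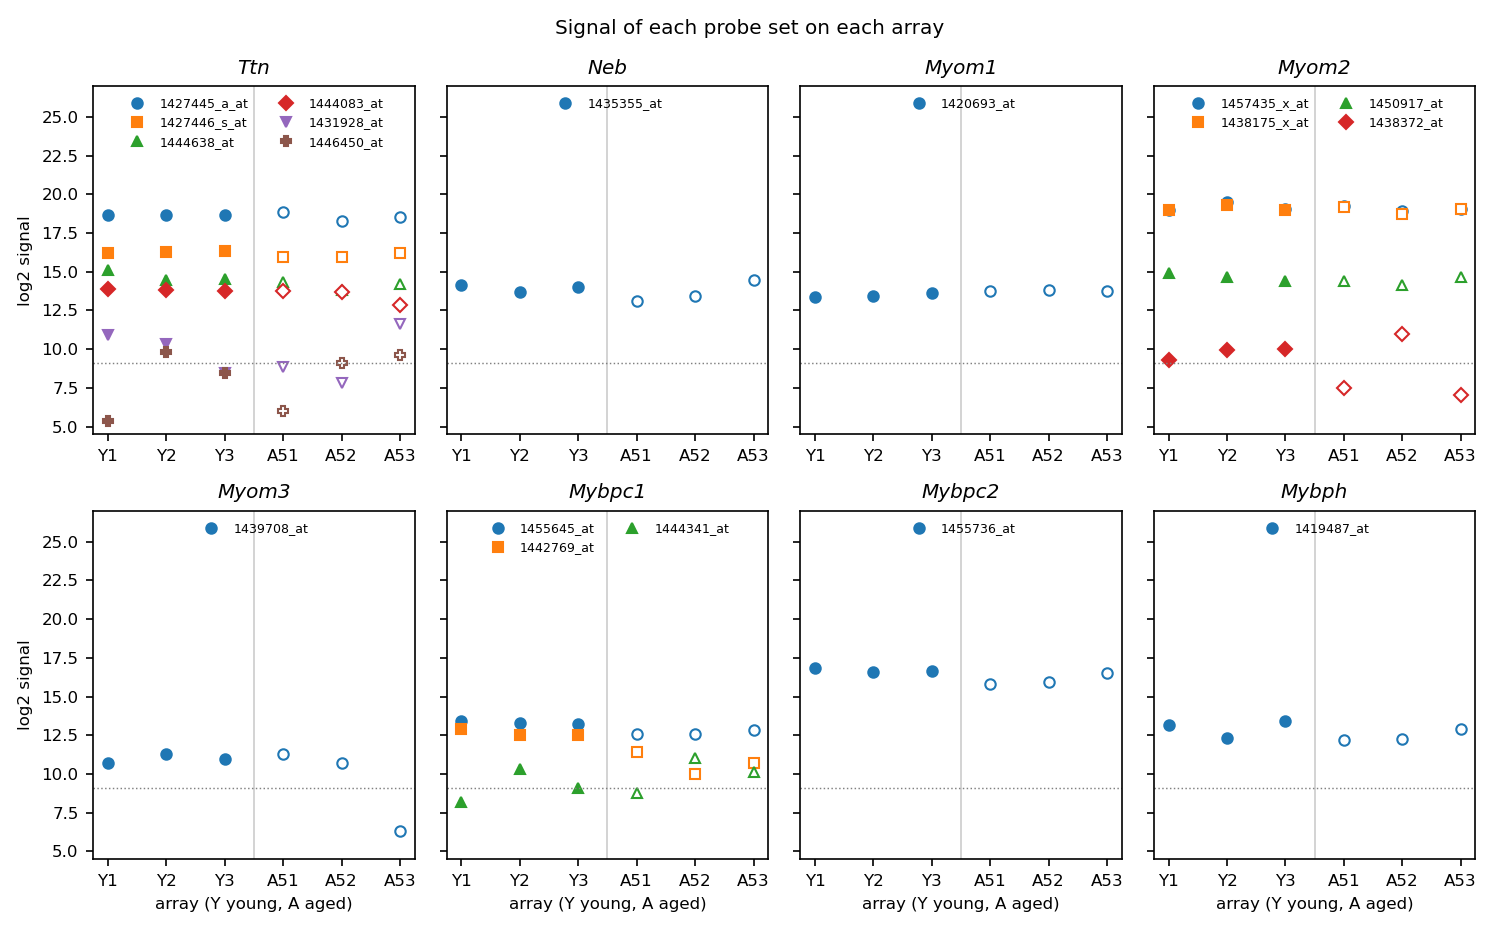
Log2 signal of all 18 probe sets (vertical axis) on each array (horizontal axis; filled markers young, open markers aged; plus-shaped markers for the dim Ttn probe set that was not tested), 1 panel per gene, with the dotted line at the filter on dim probe sets, 9.08. The Mybpc1 probe set 1442769_at lies lower on all 3 aged arrays, Myom3 lies far below on aged replicate 53 alone, and the brightest Ttn and Myom2 probe sets each stay at a similar level on all arrays.

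Facts of the whole series that touch these values are as follows. Each array had been scaled to the same trimmed mean, and array medians lay between 637 and 833. Correlations of log2 signals between any 2 arrays lay between 0.66 and 0.75, and no array duplicated another. Fluidics station 1 had processed every young array and aged replicate 51, and station 2 had processed aged replicates 52 and 53 under a different protocol name. Any value from the first station, and the age effect of any fit with the station as a covariate, therefore rests on 1 aged array, replicate 51, whose spread is taken from the other arrays. The log2 ratio of 3 prime to 5 prime signal of control genes (Gapdh and beta-actin, averaged), which rises when label does not reach the far end of a transcript, was 1.71, 1.77 and 1.75 on the young arrays. On aged replicates 51, 52 and 53 it was 2.11, 2.00 and 2.86. It was thus higher on every aged array, by 0.58 on average (exact permutation p = 0.1, two-sided, the smallest that 3 against 3 arrays can give), and highest on aged replicate 53, without which the difference was 0.31. Its SD was 0.03 among the young and 0.47 among the aged arrays. Any fit with this control ratio as a covariate therefore takes its slope mostly from the aged arrays, replicate 53 above all. As the groups do not overlap in it, such a fit cannot tell the ratio from age. All 8 skeletal muscle markers, among them Acta1, Ckm and Mb, were measured, with 0 past the test and all negative (median -0.70), and of 6 heart markers 3 were too dim to be tested, with 0 of the remaining 3 past the test.

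The promoters of the 3 myosin-binding protein genes are shown because these are a family of related proteins and include the gene with a called probe set. They run from 250 bases before to 50 after a RefSeq start on GRCm38.p6, 5 prime to 3 prime on the gene's strand. In all 3 genes this start lies inside the outermost end of the gene's annotated span. Mybpc1 lies on chromosome 10 (minus strand, window chr10:88605103-88605402), Mybpc2 on chromosome 7 (minus strand, chr7:44524620-44524919) and Mybph on chromosome 1 (plus strand, chr1:134193198-134193497). Capitals mark matches, on either strand, to the E-box CANNTG, which MyoD family factors bind, and to the MCAT element CATTCC, which TEAD factors bind.
Mybpc1: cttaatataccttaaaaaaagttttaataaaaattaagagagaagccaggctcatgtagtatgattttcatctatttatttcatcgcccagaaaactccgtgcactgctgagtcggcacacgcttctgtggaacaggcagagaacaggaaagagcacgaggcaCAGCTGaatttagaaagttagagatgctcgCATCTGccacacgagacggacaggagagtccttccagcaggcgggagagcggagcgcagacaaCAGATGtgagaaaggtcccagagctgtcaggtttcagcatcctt
Mybpc2: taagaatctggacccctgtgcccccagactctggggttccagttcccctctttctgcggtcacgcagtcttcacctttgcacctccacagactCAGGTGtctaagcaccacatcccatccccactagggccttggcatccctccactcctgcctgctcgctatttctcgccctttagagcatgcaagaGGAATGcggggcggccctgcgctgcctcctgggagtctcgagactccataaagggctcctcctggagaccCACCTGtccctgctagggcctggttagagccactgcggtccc
Mybph: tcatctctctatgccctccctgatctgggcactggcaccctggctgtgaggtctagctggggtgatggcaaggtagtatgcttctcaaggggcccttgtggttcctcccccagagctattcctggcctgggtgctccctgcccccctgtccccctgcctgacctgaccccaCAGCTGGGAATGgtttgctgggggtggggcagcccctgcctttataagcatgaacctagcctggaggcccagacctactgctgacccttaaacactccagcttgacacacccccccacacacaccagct
Mybpc1 has 3 E-boxes and 0 MCAT matches, Mybpc2 has 2 and 1, and Mybph has 1 and 1 that lie side by side. Of 32851 promoter windows of the same length 72.3% held an E-box and 14.7% an MCAT match. The MEF2 motif and the CArG box, searched on both strands too, matched none of these 3 windows, against 3.19% and 1.63% of all windows. Promoters of 6 of the 8 genes were in the table. Of the remaining 3, Ttn and Myom3 had 1 MEF2 match each and Myom1 had 1 CArG match, in a window that lies within the annotated span of Myom1.

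Mybpc1 was measured by 3 probe sets, whose estimated changes differed in size and sign. The differences between them within arrays, given below, did not pass, and the exact permutation test cannot go below p = 0.1. On 1442769_at the young signals were 7687, 5808 and 5889 and the aged signals 2782, 1031 and 1710. Every aged array thus lay below every young one, and aged replicate 52 was lowest. The 95% confidence interval of this change was -2.74 to -1.09. On 1455645_at, the brightest of the gene, the young arrays read 11024, 9915 and 9672 and the aged arrays 6252, 6118 and 7366. The groups were again apart, with a change of 1.55-fold (95% interval of the log2 change -1.13 to -0.14, adjusted p = 0.342). On 1444341_at the young signals were 290.2, 1273 and 543.8 and the aged signals 434.2, 2078 and 1114. This dim probe set overlapped between groups and pointed the other way (0.77 ± 0.83, adjusted p = 0.788). With the probe sets of each gene averaged, Mybpc1 as a gene did not pass (-0.59 ± 0.30, limma adjusted p = 0.519 over 11763 genes).

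The call on 1442769_at depended on single arrays and on how the spread was modelled. It was lost without young replicate 1, 2 or 3 (adjusted p = 0.207, 0.125 and 0.114). Leaving out aged replicate 52 or 53 lost it as well (adjusted p = 0.107 and 0.0503), and over these 5 fits the change was -1.99 to -1.55. Without aged replicate 51 it passed, at -2.27 (adjusted p = 0.00814). Both the station as a covariate and the first station alone put the change at -1.20, which is aged replicate 51 alone against the young mean (adjusted p = 0.26 and 0.12), and with the control ratio as a covariate it was -2.01 (adjusted p = 0.187). All 18 alternatives gave a negative change, from -2.27 to -1.20, and 8 of them called it.

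Within each array, 1442769_at was set against the gene's brightest probe set, which frees the comparison from array scaling. The log2 difference was -0.52, -0.77 and -0.72 on the young arrays and -1.17, -2.57 and -2.11 on the aged ones. The 2 groups did not overlap, and the difference was 1.28 lower in aged muscle (exact permutation p = 0.1, adjusted p = 0.45 over 9 pairs). Relative to the same probe set 1444341_at was 1.41 higher in aged muscle, with groups that overlapped (exact permutation p = 0.2). Leaving out 1 array gave 0.83 (aged replicate 52) to 1.99 (young replicate 2).

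The other myosin-binding proteins were measured by 1 probe set each. Mybpc2, the fast form, read 115307, 96636 and 102902 in young muscle and 57715, 62990 and 95579 in aged muscle. All aged arrays lay below all young ones, but aged replicate 53 lay close to the lowest young array. Its change was 1.49-fold (95% interval of the log2 change -1.08 to -0.07, adjusted p = 0.425). Without aged replicate 53 the change was -0.80 and the adjusted p was 0.0533. Mybph read 9035, 5229 and 11216 in young muscle and 4719, 4833 and 7811 in aged muscle. Aged replicates 51 and 52 were below all young arrays and aged replicate 53 was among them (adjusted p = 0.623, 95% interval -1.24 to 0.19). In both genes aged replicates 51 and 52 lay 0.73 to 0.86 below the young mean, and aged replicate 53 lay 0.13 and 0.05 below it. All 18 alternatives kept a negative change for Mybpc2 and for Mybph, and none called either.

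The balance of slow to fast myosin-binding protein C was compared as the log2 signal of 1455645_at of Mybpc1 minus that of Mybpc2 on the same array. It differed by -0.06 between the groups, with -3.36 ± 0.07 (SD, n = 3) in young and -3.42 ± 0.25 in aged muscle (exact permutation p = 0.9). Only the difference between groups has a meaning here, since the level of such a ratio depends on the probes. The difference also depends on the Mybpc1 probe set used. Relative to 1455645_at the called 1442769_at was 1.28 lower in aged muscle, so a balance taken with it would be lower there. With the mean of all tested probe sets of each gene the difference was -0.02. Mybph minus Mybpc2 differed by 0.05 (exact permutation p = 0.8). Both changed sign with 1 array left out, to 0.08 without aged replicate 53 and to -0.21 without young replicate 2. Markers of slow fibres were lower in aged muscle: 8 of 8 had a negative change and 7 of 8 passed (median -3.35). Over all 11763 tested genes 5856 had a negative change and 118 were called lower. Of the slow markers 6 passed without young replicate 2 or with the control ratio as a covariate, 8 without aged replicate 53, and 4 with no trend. Their summed signal was 149059 to 182668 on the young arrays and 19865 to 23563 on the aged ones. Atp2a2 was called on 1 of its 3 tested probe sets. The aged mean log2 signals of Tnnt1 and Tnni1, 8.29 and 8.56, lay under the filter of 9.08, so the size of their changes is uncertain. Of 10 fast fibre markers 10 were negative and 1 passed (median -0.57). The part of fibre type in the Mybpc1 values was not tested, and in whole muscle fewer fibres of a type and less RNA per fibre cannot be told apart.

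**Figure D2:**
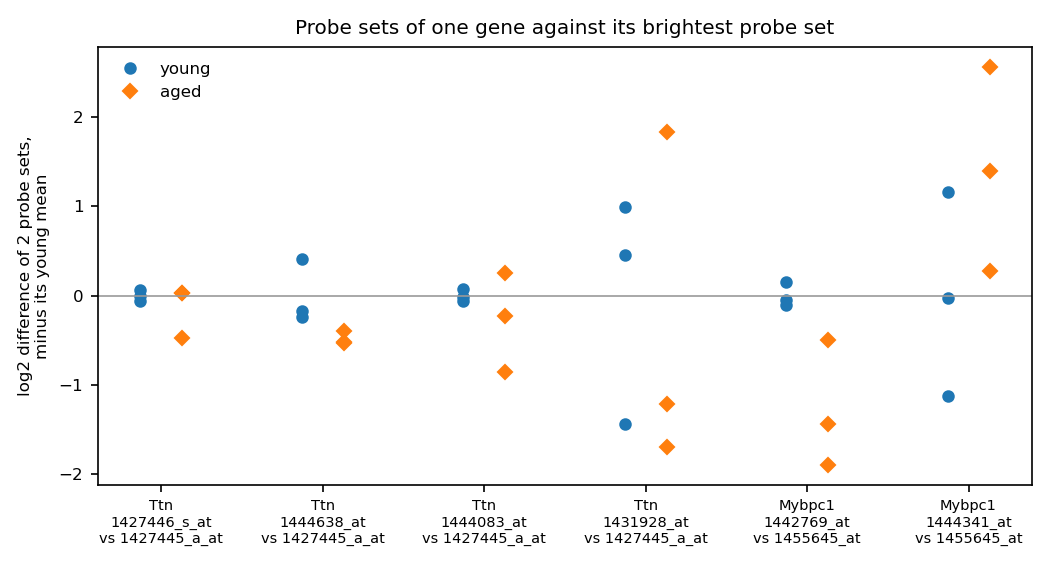
Log2 difference between a probe set and the brightest probe set of the same gene on the same array, with the young mean set to 0 (vertical axis), for each pair of Ttn and Mybpc1 (horizontal axis; circles young, diamonds aged). For Ttn 1444638_at and Mybpc1 1442769_at the aged arrays lie wholly below the young ones, and for the other pairs shown the groups overlap.

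Titin was measured by 6 probe sets, 5 of them tested, and all 5 had negative changes that did not pass. On 1427445_a_at, the brightest, the young signals were 418100, 416715 and 410831 and the aged signals 466517, 320654 and 383411. The young arrays were within a narrow range and the aged arrays lay on both sides of them. The change was -0.11 ± 0.24 (95% interval -0.63 to 0.41), and it was 0.0087 after quantile normalization. The groups thus differed by less than the SD of the aged arrays on this probe set, 0.27.

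On 1427446_s_at the young arrays read 76469, 79116 and 81555 and the aged arrays 63908, 62202 and 74437. The groups did not overlap, at a change of only 1.19-fold (adjusted p = 0.707). The other titin probe set without overlap was 1444638_at, with 36095, 22909 and 23581 in young and 20881, 14512 and 18830 in aged muscle. It changed by -0.59 ± 0.24 (unadjusted p = 0.032, adjusted p = 0.435). Young replicate 1 was the highest array there.

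On 1444083_at the young signals were 15304, 14348 and 13742, and aged replicates 51 and 52, at 13802 and 13246, were close to them. Aged replicate 53, at 7369, was the only array far below. The change was -0.39 ± 0.27, and with the control ratio as a covariate it was 0.23. That same array had the highest 3 prime to 5 prime control ratio, 2.86, and the part of that ratio in this value was not tested.

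The 2 dimmest titin probe sets gave no usable comparison. On 1431928_at signals ran from 344.0 to 1894 in young and from 225.0 to 3112 in aged muscle (-0.47 ± 1.00). On 1446450_at, which was under the filter, they ran from 40.8 to 882.2 and from 63.7 to 780.5, and without the filter its change was 0.37 ± 1.37. Both groups spread over several-fold ranges and overlapped.

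Ttn is the longest of these genes, so its probe sets were compared within arrays as a look at whether parts of a long transcript moved alike. It spans 278578 bases on chromosome 2 (GRCm38.p6, chr2:76703980-76982557). Relative to 1427445_a_at, 1444638_at was 0.48 lower in aged muscle, at -3.53, -4.19 and -4.12 on the young and -4.48, -4.47 and -4.35 on the aged arrays (exact permutation p = 0.1, adjusted p = 0.45 over 9 pairs). The groups did not overlap, and young replicate 1 stood apart from the other young arrays. Without it the difference was -0.28. The other titin pairs differed by -0.14, -0.28 and -0.36, and their groups overlapped (exact permutation p of 0.5 to 0.9). None kept its sign throughout: 1427446_s_at was at 0.03 without aged replicate 51, 1444083_at at 0.01 without aged replicate 53, and 1431928_at between -1.46 and 0.31 with 1 array left out. The positions of the probe sets along the transcript were not analysed here, so none of them is called a 3 prime or a 5 prime probe set.

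The other genes are shorter. Neb spans 202159 bases (chr2:52136640-52338798) and Mybph, the shortest, 7820 bases (chr1:134193418-134201237), and their changes were -0.27 and -0.52. Myom1, with a change of 0.32, spans 123525 bases. Mybpc1, the gene with a called probe set, spans 86951 bases. These are spans of the whole gene with its introns, and no test was made over 8 genes.

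Nebulin was measured by 1 probe set, 1435355_at. The young signals were 18379, 13313 and 16235 and the aged signals 8929, 11300 and 22546. Aged replicates 51 and 52 were below all young arrays, and aged replicate 53 was above all of them. The change of -0.27 ± 0.31 had a 95% interval of -0.95 to 0.42 and did not pass (adjusted p = 0.81). Without aged replicate 51 it was 0.01, and without aged replicate 53 it was -0.66 (adjusted p = 0.233), so single aged arrays set this value. Neb minus Ttn within an array was -5.71, -4.83 and -4.09 on aged replicates 51, 52 and 53 and -4.71 ± 0.23 (SD, n = 3) on the young arrays (exact permutation p = 0.8). The difference of -0.16 became 0.26 without aged replicate 51 and -0.55 without aged replicate 53.

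Among the M-band genes Myom1, which encodes myomesin 1, was the only one whose aged arrays lay wholly above the young ones. The young arrays read 10421, 10816 and 12611 and the aged arrays 13909, 14444 and 13823. The spread among the aged arrays was small, and the change was 0.32 ± 0.21 (1.25-fold, 95% interval -0.14 to 0.78, adjusted p = 0.641). It was positive under all 18 alternatives, between 0.21 and 0.43, and passed in none.

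Myom2 encodes M-protein, a myomesin of fast fibres. Its probe sets 1457435_x_at and 1438175_x_at, of a kind prone to cross-hybridisation, gave nearly the same values on every array. The first read 511319, 729528 and 538139 in young and 635559, 495459 and 545450 in aged muscle, and the second 512921, 656095 and 509581, and 581855, 433831 and 544652. Both changed little (-0.07 ± 0.26 and -0.11 ± 0.25, adjusted p = 0.94 and 0.909), with groups that overlapped, and after quantile normalization the first was at 0.08. The log2 difference between the pair stayed between -0.19 and 0.0045 over the 6 arrays.

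On 1450917_at Myom2 read 30504, 25731 and 22058 in young and 21254, 18037 and 26111 in aged muscle (-0.26 ± 0.22, adjusted p = 0.728). The dim 1438372_at read 623.5, 989.3 and 1021 in young and 180.4, 2001 and 133.5 in aged muscle. There the aged arrays lay on both sides of the young ones, and the change of -1.24 ± 1.11 did not pass (adjusted p = 0.745).

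Myom3, the third myomesin, varied widely. Its probe set 1439708_at read 1709, 2478 and 2019 in young muscle and 2515, 1672 and 80.6 in aged muscle. Aged replicates 51 and 52 were within or next to the young range, and only aged replicate 53 was low, at -4.66 from the young mean on the log2 scale. The change was -1.55 ± 1.02 (95% interval -3.77 to 0.66, adjusted p = 0.642), and without aged replicate 53 it was 0.0040. Within an array Myom3 minus Myom2 was -8.23, -8.20 and -8.06 on the young arrays and -7.98, -8.21 and -12.72 on the aged ones, a difference of -1.48 that was 0.07 without aged replicate 53. Myom1 minus Myom2 was 0.40 higher in aged muscle, at -5.70 ± 0.34 in young and -5.31 ± 0.21 in aged (SD, n = 3; exact permutation p = 0.2). Without young replicate 2 this was 0.21, on aged replicate 51 alone 0.19, and with the mean of all tested probe sets 0.74. None of the 5 gene pairs compared within arrays had groups without overlap.

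**Figure D3:**
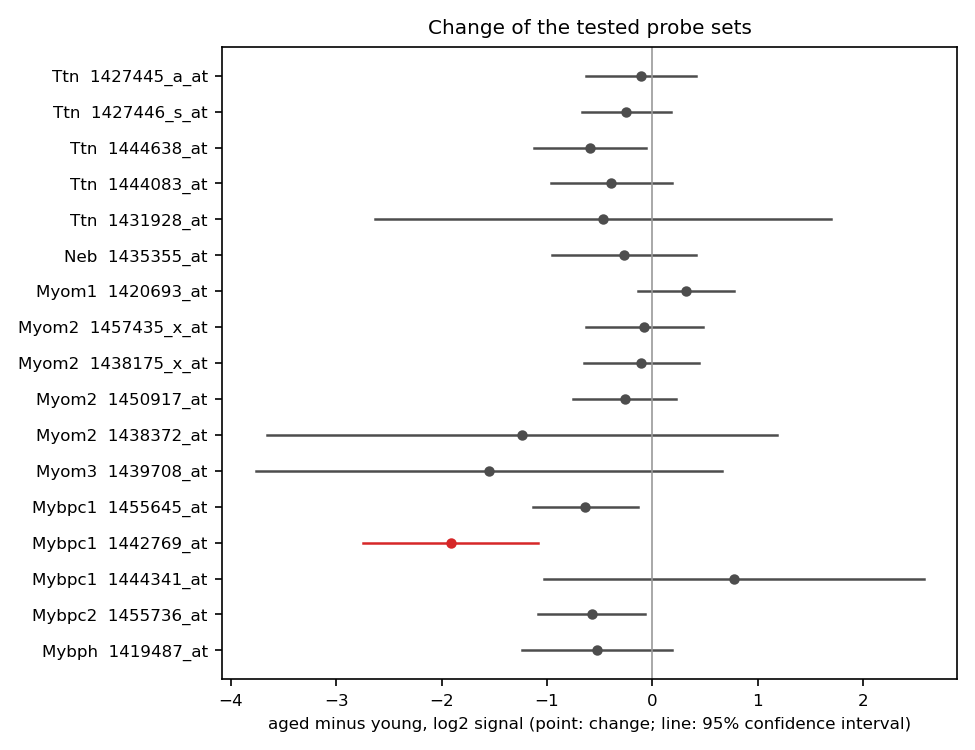
Change of the 17 tested probe sets (aged minus young, log2 signal, horizontal axis) with the 95% confidence interval, 1 row per probe set, red where the adjusted p was under 0.05. Mybpc1 1442769_at is the only red row, at -1.91, and the dim probe sets of Ttn, Myom2, Myom3 and Mybpc1 have intervals several times as wide as those of the bright ones.

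The 3 aged arrays did not behave alike over these genes. Of the 17 tested probe sets aged replicate 52 was the lowest of all 6 arrays on 9, aged replicate 51 on 3 and aged replicate 53 on 3. The same count was not made over all tested probe sets, so it may be a trait of the whole array. Several of the 17 also share a transcript. Against the young mean, aged replicates 51, 52 and 53 were lower on 12, 14 and 12 probe sets, with medians of -0.37, -0.37 and -0.10. Only on Myom1 1420693_at, both bright Mybpc1 probe sets, Mybpc2, Mybph, Ttn 1427446_s_at, 1444638_at and 1444083_at did all 3 aged arrays lie on the same side of the young mean.

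**Figure D4:**
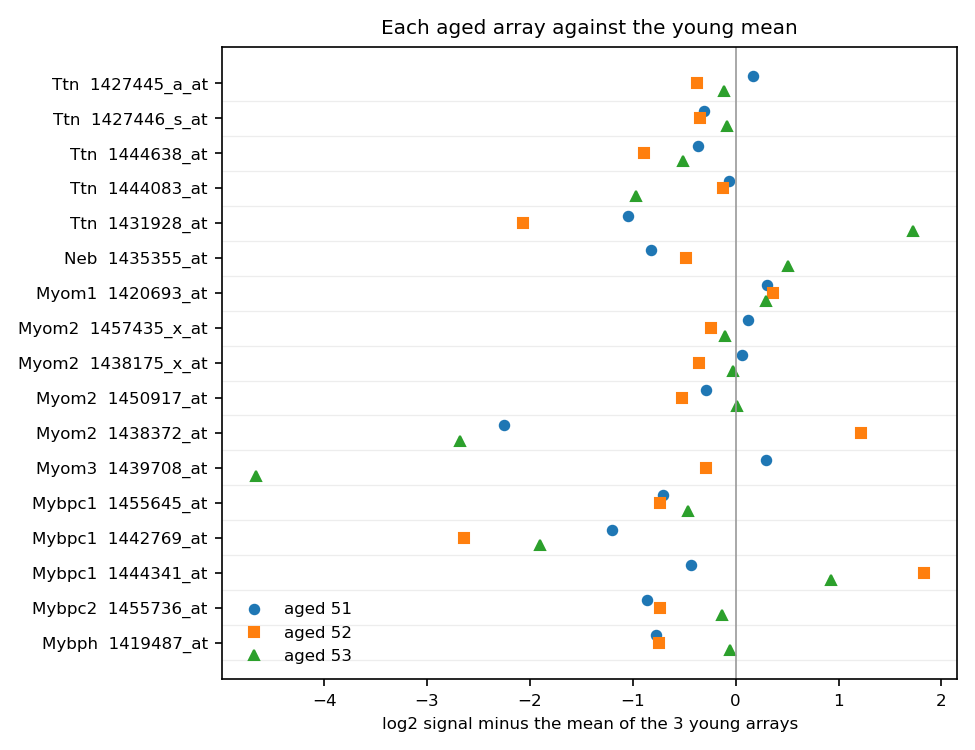
Log2 signal of each aged array minus the mean of the 3 young arrays (horizontal axis) for the 17 tested probe sets (rows; circles replicate 51, squares 52, triangles 53). Aged replicate 53 is furthest from the others on Myom3 (-4.66), and on Mybpc2 and Mybph it lies next to the young mean while the other two lie 0.73 to 0.86 below.

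Genes that work with these proteins were taken from 4 lists, with 1 probe set per gene, the brightest. Over all 11763 tested genes, 118 were called lower and 46 higher, and the median change was 0.0028. Of 19 tested titin partners and stretch sensors 4 fell, 0 rose and 15 did not pass (median -0.17, and 0.02 without young replicate 1). These were Ankrd2 (-2.13 ± 0.23, adjusted p = 0.000497), an ankyrin repeat protein that binds titin, and the muscle LIM protein Csrp3 (-3.55 ± 0.61, adjusted p = 0.012). Actn2, the alpha-actinin that anchors titin at the Z-disc (-1.88 ± 0.27, adjusted p = 0.00372), and Fhl1, a LIM protein (-1.51 ± 0.25, adjusted p = 0.00869), fell as well. Fhl1 was called on 1 of its 2 tested probe sets. The calls on Fhl1 and Csrp3 were lost without young replicate 2 or 3 (adjusted p = 0.084 and 0.0539 for Fhl1, 0.084 and 0.0505 for Csrp3). With no trend of the spread with brightness none of the 4 passed. Fitted with the station, Fhl1 was at -1.27 (adjusted p = 0.123), and with the control ratio as a covariate neither passed (adjusted p = 0.122 and 0.0717).

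Other members of this list are given here as chosen after their values were seen. The titin cap Tcap (-0.90 ± 0.24, adjusted p = 0.133) and myotilin, Myot (-0.58 ± 0.21), did not pass. Nor did Capn3, the calpain that binds titin (0.14 ± 0.27), or the muscle RING finger ligases Trim54 (0.34 ± 0.27) and Trim63 (0.30 ± 0.26).

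Of 15 tested genes of thin filament length and nebulin partners 1 fell, 0 rose and 14 did not pass (median -0.29). This was Lmod2, a leiomodin that nucleates and lengthens thin filaments (-2.15 ± 0.33, adjusted p = 0.00541). Aged replicate 51 alone, the one aged array of the first station, was at -1.70 from the young mean (adjusted p = 0.0685, and 0.0912 in the fit with the station), and with the control ratio as a covariate Lmod2 was at -2.11 (adjusted p = 0.106). With no trend it did not pass either (adjusted p = 0.231). The list's median was -0.50 without aged replicate 53 and with the station as a covariate, and -0.78 with the control ratio as a covariate. Lmod3, a related leiomodin, was at -1.39 ± 0.37 (adjusted p = 0.143), and without aged replicate 51 at -1.72 (adjusted p = 0.0383). The capping protein subunit Capza1 was at -1.05 ± 0.30 (adjusted p = 0.171), and without aged replicate 53 at -1.40 (adjusted p = 0.00913). Both were chosen after their values were seen. Of 9 tested M-band partners and relatives of titin and obscurin 0 passed. Their median was -0.09, but 0.02 after quantile normalization, 0.08 without young replicate 1 and 0.16 without aged replicate 52. They include Cmya5, which encodes myospryn (0.78 ± 0.21, adjusted p = 0.153, and called higher after quantile normalization at 0.94 with an adjusted p of 0.0212). The muscle creatine kinase Ckm was at -0.77 ± 0.27, and the fast heavy chains Myh1 and Myh4 were at -0.59 ± 0.23 and -0.15 ± 0.26.

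Of 12 tested genes of the thick filament and its assembly 5 fell, 0 rose and 7 did not pass (median -0.71). These 5 were all myosin chains. Among them Myh7, Myl2 and Myl3 are also counted with the slow fibre markers, and Myh2 is the fast fibre marker that passed. The slow heavy chain Myh7 was at -4.68 ± 0.74 and the type 2A heavy chain Myh2 at -2.38 ± 0.25. The aged mean log2 signal of Myh7, 9.17, lay close to the filter of 9.08, so the size of its change is uncertain. The light chains Myl2, Myl3 and Myl1 were at -3.69 ± 0.27, -4.24 ± 0.33 and -1.04 ± 0.22, and Myl3 was called on 2 of its 3 tested probe sets. The Myl1 call was lost when any array other than aged replicate 53 was left out (adjusted p of 0.065 to 0.274), after median centring (adjusted p = 0.127) and within the first station (adjusted p = 0.0892). Leaving out young replicate 2 ended the Myh7 call (adjusted p = 0.0533), as did the control ratio as a covariate, at -2.96 (adjusted p = 0.228). With no trend Myl2 and Myl3 alone of these 5 passed. The myosin chaperone Unc45b was at 0.40 ± 0.24, and Rbm20, which controls titin splicing, at 0.56 ± 0.33, and neither passed. Both were chosen after their values were seen. The cardiac form Mybpc3 and Mybphl were below the filter.

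**Figure D5:**
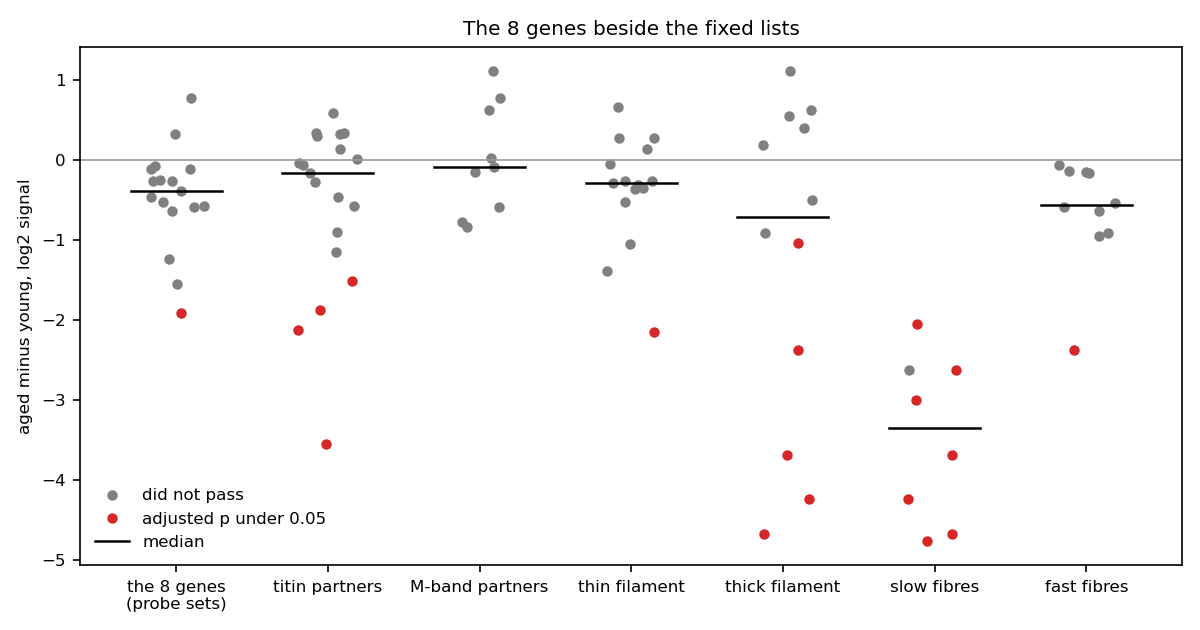
Change (aged minus young, log2 signal, vertical axis) of the 17 tested probe sets of the 8 genes and of the brightest probe set of each gene in 6 lists (horizontal axis), red where the adjusted p was under 0.05, with the median as a bar. The medians are -0.39 for the 8 genes, -0.17, -0.09, -0.29 and -0.71 for the lists of partners, and -3.35 and -0.57 for slow and fast fibre markers. Some genes are in several lists and are drawn in each.

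Markers of some other tissue components differed between the groups beside these values. Of 4 tested fibroblast markers 3 fell, and 2 did when any array other than aged replicate 53 was left out. Their summed signal was 529651 to 762665 on the young arrays and 49952 to 62139 on the aged ones. The brightest of them on the young arrays were the collagen genes Col1a1 and Col1a2, with changes of -5.71 and -4.62. Dpt was at -1.13, and Pdgfra, at -0.23, did not pass (adjusted p = 0.832). The sum is therefore no count of fibroblasts. Of 4 tested fat cell markers 3 rose, and their summed signal was 72900 to 84340 on the young arrays and 147276 to 251225 on the aged ones. Their calls numbered 1 without young replicate 2 and with the control ratio as a covariate, 2 without young replicate 1 or 3 or aged replicate 52, and 0 with the station as a covariate or no trend. Tendon markers summed to 59885 to 76557 and to 16430 to 18549, with 3 of 4 called lower. That count was 1 without young replicate 1 or 2 and with either covariate, 2 without young replicate 3, and 0 with no trend. These counts rest on the brightest probe set of each gene. Fmod, a tendon marker, was called on 1 of its 6 tested probe sets, and Fabp4, a fat cell marker, on 1 of 4. The ranges of summed signals of the fibroblast, fat cell and tendon lists did not overlap between the groups. Those of macrophage, heart, blood and regenerating fibre markers did, with none of their tested genes called. Macrophage markers, for example, summed to 53345 to 70827 on the young and 60446 to 95996 on the aged arrays. Of all 11763 tested genes, 118 were called lower and 46 higher. The part of any of these components in the values of the 8 genes was not tested.

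Genes with similar profiles over the 6 arrays were sought for the 3 genes that had any probe set with a call or a change beyond 1 in size. The brightest probe set of each gene was used, which for Mybpc1 and Myom2 is not the one that met this criterion. Likeness was measured by the root mean square difference between mean-centred log2 signals, among 6756 bright genes. Nearest to the brightest Mybpc1 probe set were Serhl (0.049), the Z-disc protein Ldb3 (0.053, with its own change at -0.63) and Rbm14 (0.055). Nearest to the brightest Myom2 probe set were Tnrc6b (0.064), the fast heavy chain Myh4 (0.065, change -0.15) and Htra3 (0.081). For Myom3 the nearest were Kifc2 (0.54), Tln1 (0.60) and Spata13 (0.64). The Myom3 distances were several times the others. With 6 arrays in 2 groups these are descriptions only.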

How the data were processed

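Total RNA of the muscle was labelled with biotin and hybridised to Affymetrix mouse arrays, per the labels' protocols. Every probe set has 1 deposited linear intensity per array, which the authors obtained by MAS5 (per the submitters' processing notes). Its version and settings were not found in the sources used. With 2% of probe sets trimmed at each end, every array of the deposited table had a mean of 1500, so all had been scaled to it.

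Intensities were taken to log2, 64 control probe sets were removed, and probe sets whose mean log2 signal fell short of the median (9.08, a signal of 540) were not tested. Aged and young arrays were then compared over 22519 probe sets with limma 3.58.1 in R 4.3.3 (lmFit, then eBayes with a mean-variance trend). Tests were two-sided. Benjamini-Hochberg adjustment covered all 22519, at 0.05. Pairs of probe sets were compared within arrays by exact permutation tests. The limma step was tested on simulated data with large changes only, which says nothing about the power to call changes as small as most of those reported here.

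Of the run settings deposited with each array, other values without a scale, only the fluidics protocol and station were read. Probe sets were named through the platform's gene table, and only those with 1 symbol. All 8 genes and all their probe sets are named. Of each list of partner genes every called gene is named or, where none was called, the 4 brightest. Lists of cell type markers are given by counts and sums, with a few of their members named. Of genes with similar profiles the nearest 3 are named. The genes and lists were chosen with earlier results of these data known. The alternatives changed the scaling (quantile, median), the filter (none, stricter), the pseudocount (219), the array weights, the variance model and the covariates (station, control ratio). Others left out single arrays, the second station or cross-hybridising probe sets, required 1.5-fold or averaged the probe sets of a gene. Figures used matplotlib 3.10.9 in Python 3.11.15.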

Additional observations from a re-analysis of the deposited data

How the results depend on the processing

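Of 302 values of single tested probe sets under the alternatives 268 kept their direction and their side of the threshold, 10 kept their direction but not their call, all of them Mybpc1 1442769_at, and 24 changed sign, all of them far from passing. The cause was not tested in any of these. Over all probe sets 237 passed, and 365 did within the first station alone (where 1 aged array stands against 3 young ones), 138 with the RNA quality covariate, 21 with no trend, 0 with the unmoderated linear model (2262 at an unadjusted p under 0.05 in the reported fit) and 124 to 342 with 1 array left out. Of the 8 genes' probe sets 1 passed. The count was 0 with the station as a covariate, within the first station alone, with the RNA quality covariate, with no trend, with the unmoderated linear model and with the probe sets of a gene averaged, and 0 to 1 with 1 array left out. Quantile normalization put Ttn 1427445_a_at at 0.0087 and Myom2 1457435_x_at at 0.076. The station as a covariate and the first station alone, which give equal estimates by construction, put Ttn 1427445_a_at at 0.17, Myom2 1457435_x_at at 0.12 and 1438175_x_at at 0.067, Myom3 at 0.30 and Mybpc1 1444341_at at -0.43. The RNA quality covariate, which is the control ratio and so cannot be told from age, put Ttn 1444083_at at 0.23, Myom2 1438372_at at 0.52 and Myom3 at 1.69. With 1 array left out the ranges were -0.24 to 0.027 for Ttn 1427445_a_at, -1.56 to 0.34 for Ttn 1431928_at, -0.66 to 0.011 for Neb, -0.17 to 0.084 for Myom2 1457435_x_at, -0.19 to 0.019 for Myom2 1438175_x_at and -2.48 to 0.0040 for Myom3. Among 9 pairs of probe sets of one gene 2 had groups without overlap, and 2 to 4 with 1 array left out. Among 5 gene pairs it was 0, and 1 with the mean of all tested probe sets (Myom1 minus Myom2) and 0 to 1 with 1 array left out. The same counts were not made over pairs of other genes. Of all tested probe sets taken singly, the groups were apart on 8.74% (aged lower) and 7.41% (aged higher). Groups separate more easily with an array left out, so no result about these genes is read from the pair counts. No outlier can be sought in groups of 3. Dim probe sets had wide intervals, and the table holds no detection calls.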
